A study of Mus musculus with 41 samples.

Results

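The genes Gpr165, Gp9, Hs3st2, Serpinf1, Cd34, Htra3 and Trp53i11 were examined as a set of microglial transcripts that are lost in Niemann-Pick type C (NPC) mice. They are 7 of the 24015 genes in the deposited table, were taken by symbol, and were picked because their level fell strongly in NPC against wild-type (WT) mice at 1 or more ages. That same comparison chose them, so their differences between NPC and WT are described here and not tested. RNA came from microglia, the resident macrophages of the brain, sorted from mouse cerebellum as cells positive for both CD11b and Tmem119 and was sequenced after SMART-seq v4 amplification. WT mice were of the strain balb/c and NPC mice of the strain BALB/cNctr-Npc1m1N/J, which carries the Npc1m1N allele of Npc1, the lysosomal cholesterol transporter that is defective in this storage disease. The ages were 1, 3, 6 and 9 weeks in both genotypes, and each group held 4 libraries, except 3 for NPC at 9 weeks. A further arm at 9 weeks held 5 NPC mice that received PLX5622, which blocks the Csf1r kinase that microglia need to survive, and 5 NPC mice labelled control. Every mouse of that arm carried the NPC genotype, no WT mouse was treated, and the labels do not describe the control treatment further.

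The genes differ in function. Gpr165 encodes an orphan G protein-coupled receptor. Gp9 encodes glycoprotein IX, a subunit of the platelet receptor for von Willebrand factor that works together with the products of Gp1ba, Gp1bb and Gp5. Hs3st2 encodes a heparan sulfate sulfotransferase, which adds 1 of the last sulfate groups to heparan sulfate chains on cell-surface and matrix proteoglycans. Serpinf1 encodes pigment epithelium-derived factor (PEDF), a secreted serpin with neurotrophic and antiangiogenic activity. Cd34 encodes a sialomucin of haematopoietic progenitors and endothelium, Htra3 a secreted serine protease of the HtrA family, and Trp53i11 a membrane protein named as inducible by p53. Microglia mature after birth under signals such as Csf1 and TGF-beta, and in storage and degenerative disease they commonly lower a set of genes that marks the resting, or homeostatic, state.

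Gpr165 and Serpinf1 kept a smaller share of their WT level at each age, and the gap of Cd34 and Htra3 opened early. The sequences before the starts of these genes are shown because the genes move in different ways although all are read in the same cells. They are the 250 bases upstream of the start site in RefSeq on build GRCm38.p6, where all 7 genes were found, and capitals mark matches to the motifs searched. The first transcribed bases after the start were found in a GENCODE transcript of the same gene for every gene but Gp9. The motif matches of Gp9 given below rest on the RefSeq start alone. The authors aligned to mm9, so these positions are those of RefSeq and not of the deposited files. The promoters lie at chrX:96713218-96713467 (plus strand), chr11:75422624-75422873 (minus strand), chr1:194938571-194938820 (plus strand) and chr5:35679781-35680030 (minus strand).
Gpr165: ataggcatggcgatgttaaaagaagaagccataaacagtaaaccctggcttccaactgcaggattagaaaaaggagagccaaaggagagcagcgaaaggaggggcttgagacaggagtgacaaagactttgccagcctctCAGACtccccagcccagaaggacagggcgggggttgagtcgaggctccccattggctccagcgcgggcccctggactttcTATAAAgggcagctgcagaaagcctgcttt
Serpinf1: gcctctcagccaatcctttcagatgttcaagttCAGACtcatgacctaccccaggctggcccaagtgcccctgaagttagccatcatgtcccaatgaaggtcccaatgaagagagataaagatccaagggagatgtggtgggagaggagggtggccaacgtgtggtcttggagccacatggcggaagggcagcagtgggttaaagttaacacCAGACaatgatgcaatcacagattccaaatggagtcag
Cd34: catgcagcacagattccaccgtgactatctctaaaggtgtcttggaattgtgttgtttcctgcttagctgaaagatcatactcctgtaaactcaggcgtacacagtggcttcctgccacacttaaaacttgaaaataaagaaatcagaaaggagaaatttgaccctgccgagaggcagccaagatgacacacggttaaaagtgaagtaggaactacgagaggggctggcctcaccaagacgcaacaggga
Htra3: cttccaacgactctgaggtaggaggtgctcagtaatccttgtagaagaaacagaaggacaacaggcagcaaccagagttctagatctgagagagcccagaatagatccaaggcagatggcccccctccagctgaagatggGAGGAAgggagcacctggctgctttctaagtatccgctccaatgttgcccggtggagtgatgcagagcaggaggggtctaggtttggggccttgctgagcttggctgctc

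Gpr165 held TATAAA, the TATA box, from 30 to 25 bases before its start, and CAGAC, a SMAD-binding sequence, from 110 to 106 bases before it. TATAAA was present in 12.4% of the 32851 promoters of the same length in the table and in 1 of the 7 genes. Serpinf1 held CAGAC at 2 places, from 217 to 213 and from 38 to 34 bases before the start. CAGAC occurred in 3 of the 7 genes (Gpr165, Gp9 and Serpinf1) and in 42.2% of all promoters. Htra3 held GAGGAA, the core bound by PU.1, from 110 to 105 bases before the start. GAGGAA was found in Gp9, Hs3st2 and Htra3, 3 of the 7, and in 23.3% of all promoters. TGANTCA (AP-1) and CACGTG (an E-box) were in none of the 7 windows and in 6.75% and 6.02% of all promoters. Both strands were searched, and no match of 1 motif overlapped a match of another in these windows. The GC content ran from 46.4% in Cd34 to 71.2% in Trp53i11, against a median of 52.4% over all promoters. These matches describe letters in a window, and no binding was measured.

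Depth ran from 23.2 M to 40.5 M reads per library (M, 1e+06 reads) over the 41 libraries, and at least 12003 genes reached 3 reads in each. Npc1 ranged from 2606 to 7386 normalized counts in the 16 WT libraries and from 291 to 787 in the 25 NPC libraries, so that no NPC library reached the WT range. The microglial markers Itgam, Tmem119, Csf1r, Cx3cr1, P2ry12, Sall1 and Fcrls were present in every library. The median of each, over all ages, was lower in NPC than in WT libraries. These include both markers of the sort. Tmem119 had a median of 258852 in WT and 122899 in NPC, and Itgam, the gene of CD11b, 57503.8 and 33958.5. The ranges of both overlapped between genotypes. For Tmem119, limma also called NPC 9w lower than WT 9w (adjusted p under 0.05). Whether the sort took different cells in each genotype was not tested. NPC 3w replicate C had the lowest correlation with its own group, a median r of 0.896 across genes. NPC 6w replicates B and C held the most astrocyte, neuron, and oligodendrocyte and myelin marker RNA of their group. The oligodendrocyte and myelin sum was 19863 and 17169 in B and C, and 9202 and 6834 in A and D. The summed level of the monocyte and neutrophil markers was 95563 in NPC 9w PLX5622 replicate 3 and 646 to 5648 in the other 4 treated libraries. Results that rest on these libraries are given with and without them where they moved. The labels count mice as replicates, and p-values measure the spread between these samples.

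All 7 genes had lower group means in NPC than in WT microglia at each of the 4 ages, and 6 of the 7 were already apart at 1 week with no overlap between the libraries. Levels are normalized counts, gene counts divided by 1 size factor per library, and they were not compared between genes. Differences are log2 of NPC minus WT on the scale log2(normalized count + 1), with the standard error (SE) of a limma fit over 31 libraries. At 1 week the exception was Trp53i11, whose groups overlapped. At 3 weeks 6 genes were apart, and Cd34 overlapped through NPC 3w replicate C. At 6 and 9 weeks all 7 were apart. For scale, limma called 0.577% of all 14046 genes lower in NPC at 1 week, 12.6% at 3 weeks, 6.5% at 6 weeks and 7.77% at 9 weeks (adjusted p under 0.05). Those shares are by adjusted p, which is another measure than overlap, and the share of all genes without overlap was not counted. The genes were also chosen on these contrasts, so nothing is read from that comparison of shares. In bulk samples of sorted cells, fewer cells with a transcript and less of it per cell cannot be told apart.

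**Figure D1:**
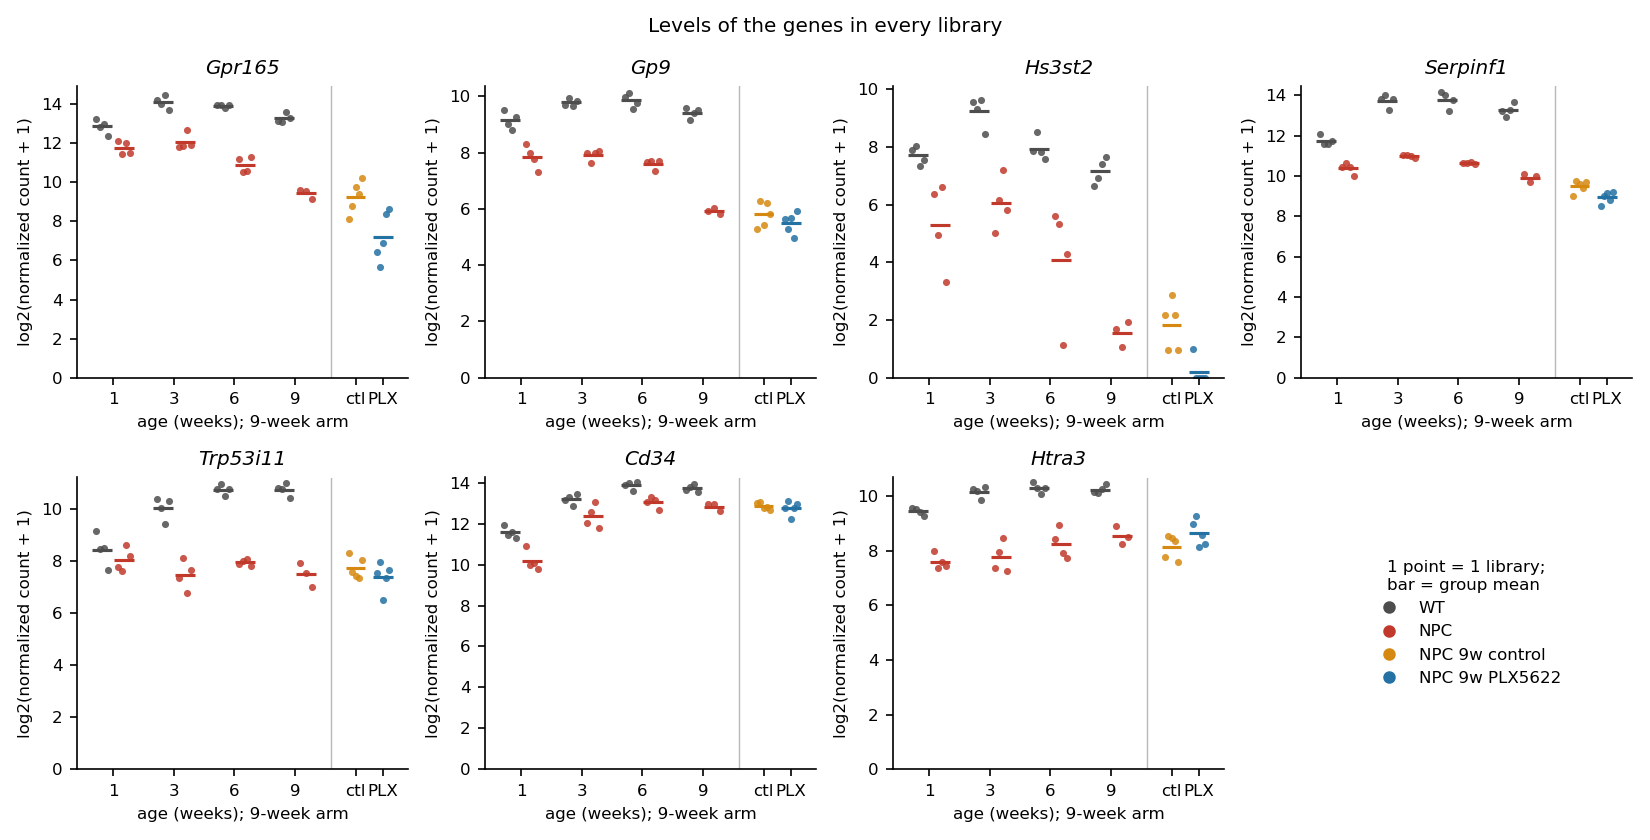
Level of each gene as log2(normalized count + 1) in all 41 libraries, by age in weeks for WT and NPC and for the control (ctl) and PLX5622 (PLX) groups at 9 weeks; 1 point is 1 library and bars are group means on that scale. Gpr165, Gp9 and Hs3st2 were lower at 9 weeks than at 1 week in NPC, while Cd34 and Htra3 were higher at 9 weeks than at 1 week in both genotypes.

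Gpr165, the orphan receptor, had a level in NPC that went down after 3 weeks. In WT libraries its normalized counts were 9789, 7287, 8116 and 5329.9 at 1 week, 19013, 16444, 23104 and 13528 at 3 weeks, 15756, 15726, 14245 and 15989 at 6 weeks and 9061, 8733, 12478 and 10100.0 at 9 weeks. In NPC libraries they were 4462, 2849, 4137 and 2897 at 1 week, 3564, 3681, 6648 and 3849 at 3 weeks, 2307, 1465, 1559 and 2526 at 6 weeks and 782, 759.8 and 561 at 9 weeks. WT microglia thus had their highest means at 3 and 6 weeks, 2 groups that overlapped, whereas NPC microglia held a similar level at 1 and 3 weeks and then lost it, with no overlap between 3, 6 and 9 weeks. The NPC mean was 47.0% of the WT mean at 1 week, 24.6% at 3 weeks, 12.7% at 6 weeks and 6.94% at 9 weeks. The log2 difference was -1.08 ± 0.21 at 1 week, -2.05 ± 0.21 at 3 weeks, -3.01 ± 0.21 at 6 weeks and -3.85 ± 0.23 at 9 weeks, a widening of -2.76 ± 0.32 from 1 to 9 weeks. Without NPC 3w replicate C, the library with the highest value of its group, the difference at 3 weeks was -2.26. Without NPC 6w replicates B and C, the 2 lowest at that age, it was -2.67 at 6 weeks.

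Gp9, the platelet receptor subunit, went down within NPC mainly between 6 and 9 weeks. Its normalized counts in WT were 728, 517, 443 and 615 at 1 week, 828, 985, 810.1 and 919.9 at 3 weeks, 1009, 1103, 754 and 869.8 at 6 weeks and 763, 563, 681 and 734 at 9 weeks. NPC libraries gave 313, 253, 219 and 156 at 1 week, 254, 197, 252 and 266 at 3 weeks, 204, 206, 161 and 207 at 6 weeks and 58.9, 64.8 and 55.03 at 9 weeks. The first 3 NPC groups overlapped each other, and all 3 libraries at 9 weeks lay below every earlier NPC library. The NPC mean was 40.9%, 27.4%, 20.8% and 8.7% of the WT mean at 1, 3, 6 and 9 weeks, with log2 differences of -1.31 ± 0.19, -1.87 ± 0.19, -2.25 ± 0.19 and -3.50 ± 0.20. Its 3 partners in the platelet receptor were scarce: Gp1ba had a median of 9.34 normalized counts over the 41 libraries and Gp5 a median of 0, and neither Gp1ba nor Gp1bb passed the test between NPC and WT at any age (limma adjusted p from 0.178 to 0.881). Defining platelet genes were at or near 0, with Gp6 at 0 in all 41 libraries and Ppbp at 1 read in all libraries together. The summed platelet and megakaryocyte list, of which Itgb3 made up most with a median of 2582, ran from 1398 to 4651 over all libraries, from 2436 to 3587 in WT at 9 weeks and from 2164 to 2844 in NPC at 9 weeks. Of its 7 genes tested, limma called 2 higher (28.6%) and 0 lower in NPC at 9 weeks, beside 11.2% and 7.77% of all genes. At 3 weeks it called 1 higher and 1 lower (14.3% each), beside 14.3% and 12.6% of all genes, and at 1 and 6 weeks 0. The part of these cells in the Gp9 difference was not tested.

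Hs3st2, the heparan sulfate sulfotransferase, kept the smallest share of its WT level at 9 weeks. WT libraries held 238, 263, 160.2 and 186 normalized counts at 1 week, 744, 641, 792 and 351 at 3 weeks, 232, 366, 224 and 189.7 at 6 weeks and 98.1, 119, 169.7 and 199 at 9 weeks. In NPC the values were 80.9, 30.03, 97.03 and 8.88 at 1 week, 31.02, 70.4, 146 and 55.5 at 3 weeks, 47.9, 39.1, 1.2 and 18.6 at 6 weeks and 2.22, 1.06 and 2.8 at 9 weeks. The gene peaked at 3 weeks in WT, where 3 of the 4 libraries exceeded every library of the other ages, and NPC libraries of 1 group differed widely, NPC 6w replicate C being far below its group. The NPC mean was 25.6%, 11.96% and 10.6% of the WT mean at 1, 3 and 6 weeks. At 9 weeks the 3 NPC libraries held 6 reads in all and the 4 WT libraries 619, a level of 1.38% of WT with an exact 95% interval from 0.503% to 3.01% that covers counting error only. The log2 differences were -2.40 ± 0.68, -3.20 ± 0.68, -3.85 ± 0.68 and -5.60 ± 0.74 at the 4 ages. Without NPC 1w replicate D the difference at 1 week was -1.73. The value at 9 weeks depends on the pseudocount, since it was -4.39 with 5 added in place of 1. The difference at 6 weeks was -2.87 without NPC 6w replicate C and -2.99 without replicates B and C.

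Serpinf1, which encodes PEDF, rose steeply in WT microglia after the first week and stayed low in NPC. The WT values were 4262, 3088, 3009.8 and 3425 normalized counts at 1 week, 14361, 16696, 9814 and 14224 at 3 weeks, 18456, 16544, 9360.3 and 13668 at 6 weeks and 9399.6, 7629, 9757 and 12830.2 at 9 weeks. The NPC values were 1402, 1601, 1399 and 1018 at 1 week, 2068, 2104, 2059 and 1872 at 3 weeks, 1601, 1608, 1641 and 1563 at 6 weeks and 1092, 819 and 1009 at 9 weeks. Every NPC library, at any age, lay below every WT library, and the 4 NPC libraries at 6 weeks lay close together (SD 32.0). NPC reached 39.3%, 14.7%, 11.1% and 9.83% of the WT mean at the 4 ages. The log2 difference was -1.35 ± 0.18 at 1 week and -2.74 ± 0.18 at 3 weeks, and then moved little, to -3.13 ± 0.18 and -3.33 ± 0.20. The step between 1 and 3 weeks came with a WT change of 1.99 on the log2 scale beside an NPC change of 0.60.

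Trp53i11, named for its induction by p53, was the latest to part. At 1 week its WT normalized counts were 575, 354, 363 and 201 and its NPC counts 216, 194, 398 and 295, so that the groups overlapped. WT then gave 1355, 1062, 685 and 1264 at 3 weeks, 1742, 2024, 1443 and 1760.1 at 6 weeks and 1785, 1744, 2047 and 1388 at 9 weeks. NPC gave 164, 279.6, 108 and 202 at 3 weeks, 239, 254, 269.8 and 228 at 6 weeks and 243, 186 and 129 at 9 weeks. The WT level climbed between 1 and 6 weeks while the NPC groups from 1 to 9 weeks all overlapped their neighbours in rank, and NPC fell from 74.0% of WT at 1 week to 17.3%, 14.2% and 10.7% at 3, 6 and 9 weeks. The log2 difference went from -0.39 ± 0.28 at 1 week to -2.56 ± 0.28 at 3 weeks, -2.80 ± 0.28 at 6 weeks and -3.25 ± 0.31 at 9 weeks. From 1 to 9 weeks the gene changed by 2.30 in WT and by -0.56 in NPC.

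Cd34, the sialomucin, was lowest relative to WT in the youngest mice. Its WT normalized counts were 3875, 2836, 3089 and 2551 at 1 week, 9169, 10022, 7482 and 11382 at 3 weeks, 15474, 16114, 12605 and 16915 at 6 weeks and 12943, 13983, 15511 and 11888 at 9 weeks. In NPC they were 1898, 1003, 1071 and 871 at 1 week, 4141, 6012, 8531 and 3599.7 at 3 weeks, 8467, 10201, 9211 and 6427 at 6 weeks and 7862, 7891 and 6242 at 9 weeks. The level was higher at 9 weeks than at 1 week in both genotypes, by 2.15 (log2) in WT and 2.66 in NPC, and every NPC library at 9 weeks exceeded every WT library at 1 week. NPC stood at 39.2% of WT at 1 week and at 58.6%, 56.1% and 53.98% at 3, 6 and 9 weeks. The log2 difference was -1.40 ± 0.22 at 1 week and -0.84 ± 0.22, -0.84 ± 0.22 and -0.89 ± 0.24 thereafter, and the change from 1 to 9 weeks was 0.51 ± 0.33. Without NPC 3w replicate C, whose 8531 lay above the lowest WT library, the difference at 3 weeks was -1.07 and the groups no longer overlapped. Without NPC 6w replicates B and C it was -1.04 at 6 weeks.

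Htra3, the secreted protease, also had its gap by the first week. WT libraries gave 764, 747, 696 and 617 normalized counts at 1 week, 1238, 1165, 925 and 1286 at 3 weeks, 1477, 1271, 1075 and 1282 at 6 weeks and 1146, 1115, 1229 and 1393 at 9 weeks. NPC libraries gave 257, 163, 193 and 173 at 1 week, 167, 249.8, 356 and 152 at 3 weeks, 344, 494, 243 and 215 at 6 weeks and 477, 301 and 362 at 9 weeks. No NPC library of any age reached the lowest WT library, and NPC at 9 weeks lay above NPC at 1 week without overlap. NPC was 27.9% of WT at 1 week, lowest at 20.04% at 3 weeks, and 25.4% and 31.1% at 6 and 9 weeks. The log2 differences were -1.86 ± 0.23, -2.39 ± 0.23, -2.04 ± 0.23 and -1.70 ± 0.25, and the change from 1 to 9 weeks of 0.15 ± 0.34 was smaller than its SE. Leaving out NPC 3w replicate C gave -2.62 at 3 weeks.

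Set side by side, the 7 courses fell into 2 kinds. In Gpr165, Gp9, Hs3st2, Serpinf1 and Trp53i11 the NPC share of the WT mean was smaller at each successive age, and in Cd34 and Htra3 it was not. This sorting rests on the order of estimates, and some steps were small. The Serpinf1 difference moved by -1.39 ± 0.26 from 1 to 3 weeks, then by -0.39 and -0.20. That of Trp53i11 moved by -2.17 ± 0.40, then by -0.24 and -0.45. An early fall was not limited to Cd34 and Htra3, because Gpr165, Gp9, Hs3st2 and Serpinf1 were also apart at 1 week; what set the pair apart was that the gap did not widen by 9 weeks. Among all 14046 genes, ranked by the log2 difference at 9 weeks from the largest fall, Hs3st2 was number 1, Gpr165 number 5, Gp9 number 10, Serpinf1 number 18, Trp53i11 number 20, Htra3 number 275 and Cd34 number 1029. The first place of Hs3st2 rests on 6 reads in NPC and on the pseudocount. The difference had the same sign in each of the 38 or 39 other settings tried for each of the 7 genes at each age. The genes were picked on these contrasts, so nothing is read from the ranks or from the constant sign.

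**Figure D2:**
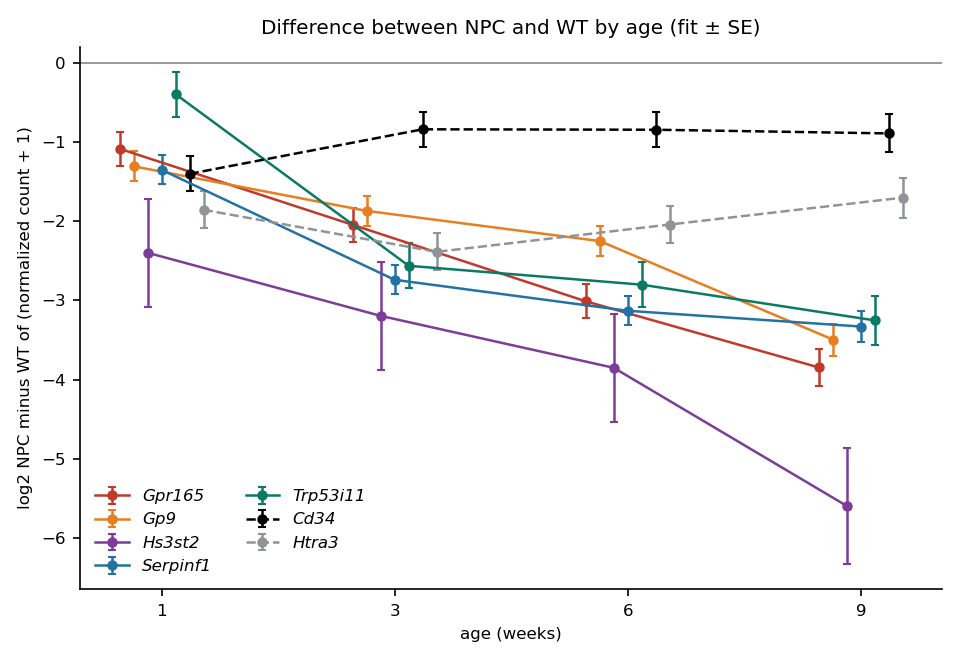
Fitted log2 difference, NPC minus WT, of log2(normalized count + 1) at 1, 3, 6 and 9 weeks for the 7 genes; points are estimates from the limma fit, bars are ± 1 SE, and points are shifted sideways to avoid overlap. Solid lines (Gpr165, Gp9, Hs3st2, Serpinf1, Trp53i11) go down with age, from between -2.40 and -0.39 at 1 week to between -5.60 and -3.25 at 9 weeks; dashed lines (Cd34, Htra3) end at -0.89 and -1.70, no lower than they began beyond their SE.

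The ages within each genotype were then compared to see what happened to the 7 genes during normal maturation. In WT microglia all 7 were higher at 3 than at 1 week with no overlap, where limma called 15.7% of all genes higher. The shares of all genes given here and below are by adjusted p under 0.05, which is another measure than overlap. The share of all genes without overlap was not counted, so nothing is read from setting the 2 side by side. The log2 changes in WT were 1.25 for Gpr165, 0.64 for Gp9, 1.53 for Hs3st2, 1.99 for Serpinf1, 1.60 for Trp53i11, 1.62 for Cd34 and 0.70 for Htra3. Over the same interval NPC changed by 0.28, 0.08, 0.74, 0.60, -0.57, 2.19 and 0.17 in the same order. The 2 contrasts share no library, and the WT change was the larger of the 2 for every gene but Cd34. From 1 to 9 weeks NPC moved by -2.34 for Gpr165, -1.92 for Gp9 and -3.75 for Hs3st2, and those 3 were lower at 9 weeks without overlap, against 10.9% of all genes called lower. Cd34 and Htra3 were higher at 9 weeks without overlap, against 11.6% called higher. Serpinf1 (-0.47) and Trp53i11 (-0.56) overlapped between those ages in NPC. In WT, by contrast, Gpr165 and Gp9 changed by 0.42 and 0.27 from 1 to 9 weeks, and Hs3st2 by -0.56. Between 1 and 9 weeks, Gpr165, Gp9 and Hs3st2 thus fell within NPC, while Serpinf1 and Trp53i11 rose in WT and overlapped in NPC. Single steps between these ends differed. Serpinf1 also fell within NPC without overlap from 3 to 6 weeks (-0.34) and from 6 to 9 weeks (-0.73). Gpr165, Gp9 and Hs3st2 rose in WT from 1 to 3 weeks while their NPC groups at those ages overlapped. No test of these differences was made, since the same libraries chose the genes.

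The treatment arm was outside the choice of the genes, and there PLX5622 was tested against control. Limma called 0.947% of 12877 genes in either direction, 40 lower and 82 higher with PLX5622, and 1931 genes had an unadjusted p under 0.05. Of the 6 genes tested, 0 passed the threshold by limma, 2 (Gpr165 and Serpinf1) had an unadjusted p under 0.05, and edgeR and DESeq2 on recovered reads also left all 6 above the threshold. The groups of all 7 overlapped. Gpr165 had normalized counts of 86.1, 50.04, 117, 337 and 404 with PLX5622 and of 278, 442, 877, 683 and 1202 in control. Replicates 1 to 3 of the treated group lay below every control library, and replicates 4 and 5 lay inside the control range. Its log2 difference was -2.06 ± 0.56 (limma, adjusted p = 0.111, 95% interval -3.28 to -0.83), the lowest adjusted p of the 6. The call changed with the setting: the adjusted p was 0.000377 in a fit over all 41 libraries and 0.0325 without NPC 9w PLX5622 replicate 5, and up to 0.275 without control replicate 5. Without PLX5622 replicate 3, which held the monocyte and neutrophil RNA, the difference was -1.97 (limma adjusted p = 0.193).

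Serpinf1 gave 368, 503, 573, 439 and 595 normalized counts with PLX5622 and 515, 849, 765, 673 and 841 in control, a log2 difference of -0.55 ± 0.18 (limma, adjusted p = 0.173, 95% interval -0.94 to -0.16). Gp9 had 48.9, 38.2, 50.1, 29.9 and 59.1 with PLX5622 and 38.1, 76.04, 41.7, 72.7 and 55.8 in control, a difference of -0.31 ± 0.36 (limma, adjusted p = 0.745, 95% interval -1.08 to 0.47). The Serpinf1 and Gp9 transcripts thus had lower means with PLX5622, and in both the groups overlapped. For Trp53i11 the values were 185, 253, 90.5, 162 and 201 with PLX5622 and 318, 189.6, 172, 164 and 265 in control, -0.34 ± 0.29 on the log2 scale (limma, adjusted p = 0.639, 95% interval -0.98 to 0.30). Cd34 had 6887, 8869, 4751, 7073 and 7899 and 8334, 8469, 6984, 7117 and 6589, a difference of -0.10 ± 0.15 (limma, adjusted p = 0.804, 95% interval -0.43 to 0.23). Htra3 had 500.2, 615, 284, 385 and 308 and 220.0, 376, 353, 330.3 and 194, a difference of 0.49 ± 0.26 in the other direction (limma, adjusted p = 0.405, 95% interval -0.07 to 1.05). Hs3st2 was under the filter on low values: its 5 treated libraries held 1 read in all, and its control libraries had 3.55, 0.939, 6.2, 3.5 and 0.931 normalized counts, 17 reads in all. With no filter its difference was -1.63 (limma adjusted p = 0.189).

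Markers of other cells were read in this arm. The summed border-associated macrophage list ran from 27222 to 51112 with PLX5622 and from 19689 to 30024 in control. Stab1 had the highest median of this list, 20190 over the 41 libraries, whereas Cd163 and Lyve1 had medians of 3.45 and 0.992. Of its 7 genes tested, limma called 2 higher with PLX5622 and 0 lower. The monocyte and neutrophil list had a median of 5608 with PLX5622 and 829 in control, and the groups overlapped. Their part in the differences of the 7 genes was not tested, apart from the values without replicate 3. Set against WT at 9 weeks, the control group and the PLX5622 group were lower for all 7 genes without overlap, where limma called 10.4% and 15.6% of 14312 genes lower. Those shares are by adjusted p and not by overlap, so they are not compared with the 7 genes. Both contrasts share the WT libraries with the NPC contrast that chose the genes. The log2 differences of control and of PLX5622 from WT were -4.02 and -6.07 for Gpr165, -5.33 and -6.95 for Hs3st2, -0.86 and -0.96 for Cd34, and -2.09 and -1.60 for Htra3. Control mice and untreated NPC mice of the same age overlapped for all 7 genes. There limma called 0% of 14312 genes, with 598 at an unadjusted p under 0.05, which does not show that the groups were the same. The low levels were seen again in the 5 control NPC mice, though only against the same WT libraries.

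**Figure D3:**
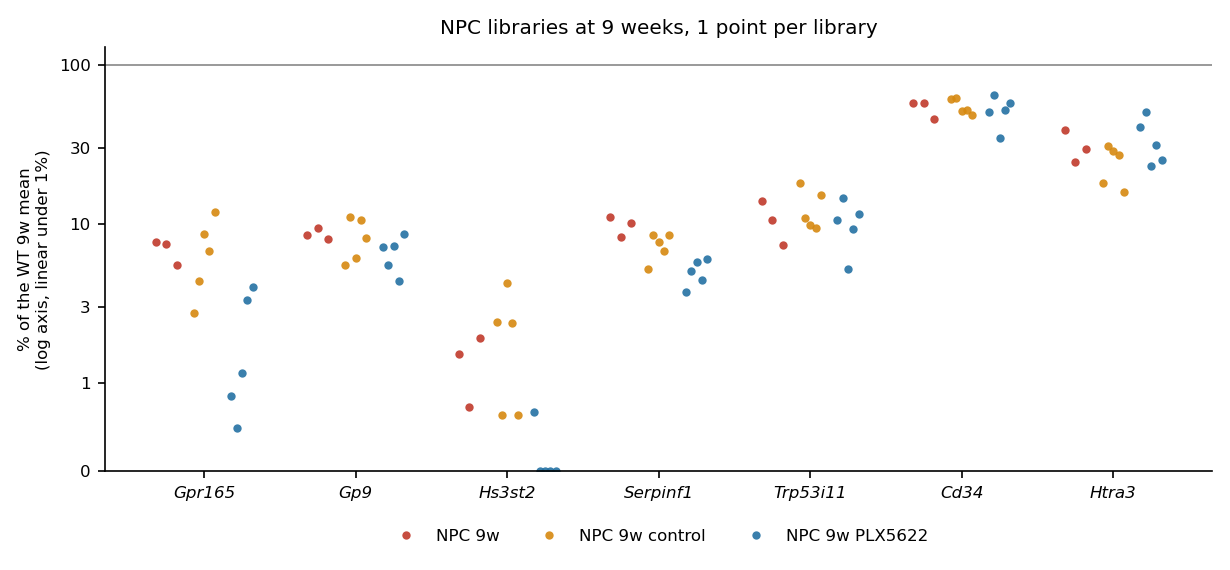
Level of each gene in the 13 NPC libraries at 9 weeks as a percentage of the WT 9w mean, on a log axis that is linear under 1%; 1 point is 1 library of the untreated (NPC 9w), control or PLX5622 group, and the line marks 100%. Cd34 stays above 30% in every library and Hs3st2 below 5%, and for Gpr165 the lowest 3 PLX5622 libraries lie under every control library while the other 2 lie among them.

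Genes with the most similar course were found by the Pearson correlation of group means of log2(normalized count + 1) over the 10 groups, among 10727 genes with a mean of at least 100 in 1 group. These values are descriptive, since groups share genotype and age. Gpr165 was closest to Apobec2 (r = 0.986), a member of the APOBEC deaminase family, and next to Fchsd2 and Nanos1 (both 0.984). Gp9 was closest to Ggt5 (0.996), a gamma-glutamyl transferase, then Mmp2 (0.985), a matrix metalloprotease, and Hspb3 (0.983). Hs3st2 was closest to Chst7 (0.981), another carbohydrate sulfotransferase, and then to Uhrf2 (0.978) and Pcyox1l (0.976). Serpinf1 was closest to Eng (0.987), a TGF-beta co-receptor, then Hpgd (0.984), which inactivates prostaglandins, and Ccnjl (0.983). Trp53i11 was closest to Mageh1 (0.987), Ampd3 (0.978) and Zfp658 (0.977). Cd34 was closest to H2-Ob (0.981), which modulates peptide loading on MHC class II, then Acsl4 (0.973) and 9130019O22Rik (0.971). Htra3 was closest to Zbtb49 (0.978), Ust (0.966), a uronyl sulfotransferase, and Mdm2 (0.963), the ubiquitin ligase of p53.

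Within the 7 genes, Gpr165, Gp9 and Hs3st2 ran closely together, with r of 0.973 to 0.984 for their 3 pairs over the 10 group means. Serpinf1 was not far from them, with r of 0.913 to 0.949 to these 3, and 0.928 to Trp53i11. All 7 were picked for a fall in NPC, which by itself raises r among them, so nothing is read from its height. Cd34 was nearly unrelated to the first 3, with r of 0.111 to Gpr165, 0.163 to Gp9 and 0.070 to Hs3st2. Its closest partner among the 7 was Htra3 at 0.620, whereas Htra3 was closer to Trp53i11 at 0.889. Eng, the nearest course to Serpinf1, had a mean of 6632 normalized counts in WT and 1239.9 in NPC at 9 weeks. Ggt5 had 1068 in WT and 236 in NPC at that age, and Chst7 had 3262 and 1071.

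The 7 genes were next set beside the groups of genes to which they belong. Of 34 homeostatic microglia genes tested, 3 fell at 1 week, 17 fell and 3 rose at 3 weeks, 19 fell and 1 rose at 6 weeks, and 20 fell at 9 weeks (limma, adjusted p under 0.05). Over all genes, limma called 0.876%, 14.3%, 8.76% and 11.2% higher at these ages, beside the shares called lower given above. Their median log2 difference was -0.13, -0.45, -0.58 and -0.69 at the 4 ages, beside 0.00, -0.04, -0.02 and 0.03 over all genes tested. Ccr1, a chemokine receptor, fell at all 4 ages, with -1.67 at 1 week (limma, adjusted p = 0.000798) and -3.22 at 9 weeks (limma, adjusted p = 3.05e-09). Selplg, the P-selectin ligand, fell by 1.84 and Tmem173, the STING adaptor, by 1.48 on the log2 scale at 9 weeks (limma, adjusted p = 1.59e-08 and 5.00e-08). The count at 1 week was 6 with a replicate block, whose letters pair the libraries at that age. It ran from 1 to 6 over the alternatives, and among single libraries left out it was 1 for replicate A of WT, 5 for replicate D of WT, 6 for replicate A of NPC and 1 for replicate D of NPC, all at 1 week. At 3 weeks it fell to 7 in a fit of the 2 groups alone, and at 9 weeks it stayed between 19 and 26.

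The enzymes of heparan sulfate, the chain that the product of Hs3st2 modifies, were read beside it. Of the 29 enzymes of synthesis and turnover that were tested, 8 rose and 1 fell at 9 weeks, 27.6% and 3.45% of the list beside 11.2% and 7.77% of all genes. The 1 that fell was Hs3st3b1, another 3-O-sulfotransferase, with a log2 difference of -1.76. At 3 weeks 5 rose and 3 fell, and in a fit of the 2 groups alone 2 and 1. The list had a median log2 difference of 0.14 at 9 weeks, beside 0.03 over all genes. Hpse, the endoglycosidase that cleaves the chain, rose by 5.44 at 9 weeks (limma, adjusted p = 5.13e-11). Naglu, a lysosomal enzyme that degrades it, rose by 0.74 (limma, adjusted p = 0.000555). Of 14 core proteins that carry the chain, 6 rose at 9 weeks (42.9%) and the others did not pass, the 6 including Sdc3 by 2.61, Gpc4 by 4.95 and Nrp1 by 1.92 (limma, adjusted p = 6.80e-08, 2.07e-06 and 6.19e-06). At 3 weeks 5 core proteins rose and 1 fell, against 3 and 0 in a fit of the 2 groups alone. The counts of rises at 9 weeks ran from 6 to 8 for the enzymes and from 4 to 9 for the core proteins over the alternatives, and the count of falls reached 3 for the enzymes in a fit of the 2 groups alone. With PLX5622, Sdc3 was higher than in control by 1.41 (limma, adjusted p = 0.00154).

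Genes targeted by p53 were called in both directions. Of 26 tested, 4 rose and 5 fell at 9 weeks, 15.4% and 19.2% of the list beside 11.2% and 7.77% of all genes, and the median log2 difference was 0.17 beside 0.03 over all genes. Perp, a membrane protein of the p53 response, rose by 2.34, whereas Cdkn1a, the cell cycle inhibitor p21, fell by 1.30 and Sesn1, a stress sensor, fell by 0.91 (limma, adjusted p = 5.09e-08, 2.53e-06 and 1.51e-05). Over all genes, limma called 12.6% lower and 14.3% higher at 3 weeks, 6.5% and 8.76% at 6 weeks, and 7.77% and 11.2% at 9 weeks. The median log2 difference of the 6 genes of the PEDF list was -0.66, -0.17 and -0.22 at these ages. The medians over all genes were -0.04, -0.02 and 0.03. Of the 6 genes of the PEDF list, 4 fell and 1 rose at 3 weeks, 2 fell and 1 rose at 6 weeks, and 2 fell and 1 rose at 9 weeks. The 4 at 3 weeks were Serpinf2, the antiplasmin of the same serpin clade, Lrp6, a Wnt co-receptor, Plxdc2, a PEDF receptor, and Pnpla2, a lipase reported to bind PEDF, with log2 differences of -2.37, -1.06, -0.73 and -0.59 (limma, adjusted p = 0.0281, 0.0360, 0.00283 and 0.0157). That count of 4 dropped to 0 in a fit of the 2 groups alone and to 2 by edgeR. Leaving out single libraries at 3 weeks gave 2 for WT library A, 1 for WT library B and 1 for NPC library C. Serpinf2 fell by 2.83 at 6 weeks (limma, adjusted p = 0.0132), where 2 became 1 when WT library D or NPC library B was left out and 0 when NPC library C was. At 9 weeks Rpsa, the laminin receptor, rose by 0.97 (limma, adjusted p = 0.0120), and that call was lost without NPC 9w replicate A (0.0855). Plxdc2 fell by 0.78 (limma, adjusted p = 0.00293), and Plxdc1 fell by 0.37 (limma, adjusted p = 0.0328), a call lost without NPC 9w replicate A (0.184). Pnpla2, Lrp6 and Serpinf2 did not pass at 9 weeks, with log2 differences of 0.42, -0.06 and -0.44.

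**Figure D4:**
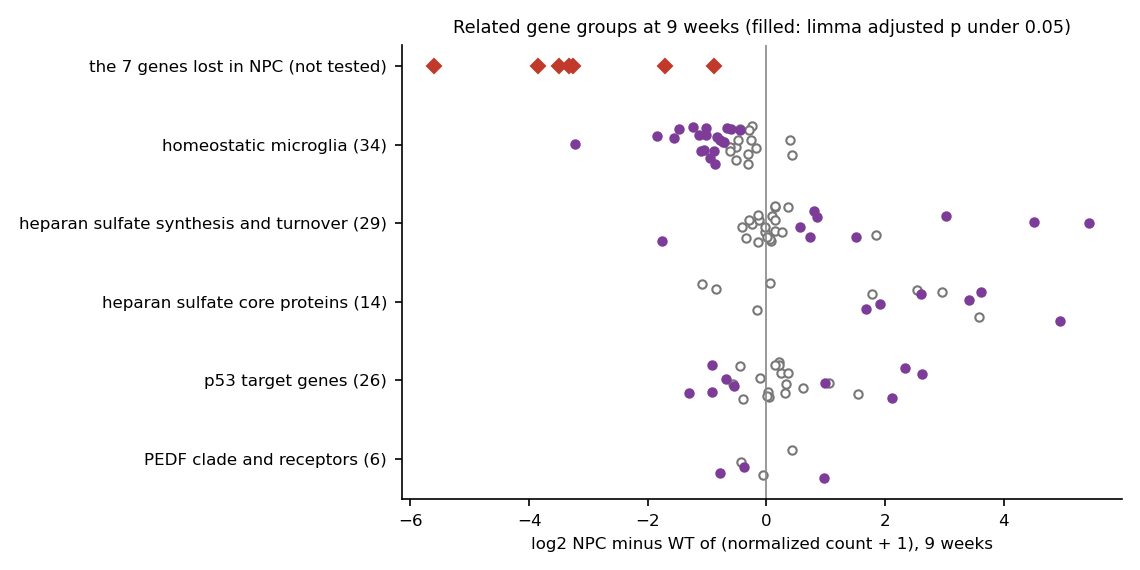
Fitted log2 difference, NPC minus WT at 9 weeks, of log2(normalized count + 1) for each gene of 5 related groups (number tested in brackets; vertical scatter has no meaning) and, as diamonds, for the 7 genes. Filled points passed limma's adjusted p of 0.05; 20 of 34 homeostatic genes lie filled to the left of 0, and filled heparan sulfate core proteins all lie to the right.

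The nearest relatives of Cd34 and Htra3 were read next. Podxl2, a sialomucin of the Cd34 family, fell by 0.79 at 3 weeks and by 0.74 at 6 weeks (limma, adjusted p = 0.0138 and 0.0278), calls lost in 3 of 38 and 6 of 39 other settings. The settings that ended the call at 3 weeks were a fit of the 2 groups alone and leaving out library C of either genotype. At 6 weeks they included leaving out library A of WT, or A, B or C of NPC. It had means of 101 normalized counts in NPC and 157 in WT at 9 weeks and did not pass there (log2 difference -0.62, limma adjusted p = 0.0815). Podxl was scarce, at 27.6 and 6.00. Htra2, a mitochondrial protease of the HtrA family, fell by 0.51 at 9 weeks (limma, adjusted p = 0.0335), a call lost in 7 of 38 other settings (adjusted p up to 0.114 without NPC 9w replicate B). Htra1 did not pass at any age, and Htra4 was under the filter between NPC and WT.

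Markers of cells that also express members of the set were read beside them. Cd34 is expressed by endothelium, and the summed endothelial list ran from 966 to 1238 in WT and from 936 to 1804 in NPC at 9 weeks, and its part in the Cd34 difference was not tested. Of its 12 genes, Cldn5, Emcn, Esam and Tek had a median of 0 over the 41 libraries, and the other 8 had medians from 1.30 (Ly6c1) to 595 (Kdr), among them Tie1 at 96.9, Egfl7 at 74.4, Cdh5 at 39.2 and Flt1 at 16.0. The most abundant were Kdr, at a median of 595, which did not pass at 9 weeks (log2 difference 0.71, limma adjusted p = 0.279), and Pecam1, at 311, which fell by 1.40 (limma, adjusted p = 0.000206). Of the 11 endothelial genes tested, limma called 2 higher at 9 weeks, and Pecam1 was the only 1 called lower. These were 18.2% and 9.09% of the list beside 11.2% and 7.77% of all genes. The median log2 difference of the list was 0.71, beside 0.03 over all genes. Of the 8 progenitor and mast cell genes, which include other markers of the cells that Cd34 is known for, Cd48 (median 3722), Meis1 (209) and Flt3 (128) were above 0 in all 41 libraries, and Ms4a2 and Cpa3 had a median of 0. Their sum, in which Cd48 had the highest median, ran from 2987 to 3639 in WT and from 4259 to 4926 in NPC at 9 weeks, without overlap. Of the 4 genes of this list that were tested, limma called 0 higher and 0 lower at 9 weeks. Their median log2 difference was -0.43, beside 0.03 over all genes, so the sum and the median went in different directions. The part of these cells in the Cd34 result was not tested. Serpinf1 is made by fibroblasts, and of the 12 pericyte and fibroblast genes 6 had a median of 0, the collagen and matrix genes Col1a1, Col3a1, Dcn and Lum and the pericyte genes Rgs5 and Kcnj8. The other 6 had medians from 1.91 (Ogn) to 504 (Pdgfrb), with Pdgfrl at 36.8, Tagln at 29.3 and Col1a2 at 4.27. The sum of this list was 585 to 841 in WT and 511 to 987 in NPC at 9 weeks, and its part in the Serpinf1 difference was not tested.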

How the data were processed

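The deposited values are a signal, namely normalized counts: the authors scaled each gene's count by a single size factor for the library. Per the submitters' processing notes, FastQC 0.11.4, STAR 2.5.1b and DESeq2 were used with build mm9; the counting tool and gene annotation are not given in the sources used here. Values were whole multiples of 1 step per library (100% of values within 1e-06), which gave whole reads for count-based alternatives and the depth of each library; without molecular identifiers, reads bound counting error only. Groups were taken from the labels, and none of the 41 libraries was left out.

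Values were analysed as log2(value + 1) in limma 3.58.1 (R 4.3.3; trend and robust, two-sided, Benjamini-Hochberg over all genes tested), on genes that reached 10 normalized counts in 3 or more libraries. The fit of WT and NPC held 31 libraries and 14046 genes, that of PLX5622 and control 10 libraries and 12877 genes, and that across arms 41 libraries and 14312 genes. The scripts were tested on simulated data. The 7 genes, the gene lists and the tests were chosen with earlier results of these data known, so the 7 genes were tested only for PLX5622 against control. Named besides them are the 3 genes most like each, up to 3 genes per list with the smallest adjusted p at 9 weeks, all genes of lists of 6 or fewer, and for marker lists the 2 most abundant genes and defining markers at 0; some genes that this rule names are not reported here. Col1a1, Col3a1, Dcn, Lum, Cldn5, Emcn, Esam, Tek, Rgs5, Kcnj8, Ppbp, Ms4a2 and Cpa3 were named as defining markers at or near 0 after their values were seen, likewise the other marker genes given beside them, Hs3st3b1, and Sdc3 with PLX5622 as the call in its list.

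The library letters paired WT and NPC at 1 week, where residuals of same-lettered libraries correlated at 0.155 to 0.193 and each matched its own letter best. At 3 weeks A and B matched best (0.207 and 0.0769), and C and D did not. At 9 weeks A and B did (0.105 and 0.116), and C did not. At 6 weeks and in the treatment arm none did. Alternatives covered the pseudocount, the filter, rescaling, which libraries were fitted, a replicate block, edgeR 4.0.16, DESeq2 1.42.0 and leaving out each library. A fit without NPC 6w replicates B and C, and the alternatives for list counts, were added after seeing the data. Promoter sequences came from RefSeq (GRCm38.p6).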

Additional observations from a re-analysis of the deposited data

Results flagged for a closer look

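In 4 of the 63 groups of 4 or 5 libraries of the 7 genes, 1 library lay far from the others of its group, and chance alone flags about 1 group in 20. Gpr165 was lowest in WT 6w replicate C, at 14245 normalized counts with the other 3 libraries between 15726 and 15989, a small gap in a tight group. In NPC at 3 weeks Gpr165 was highest in replicate C, at 6648 with the others between 3564 and 3849; the same library had the highest values of its group for Cd34, Htra3 and Hs3st2. Gp9 was lowest in NPC 6w replicate C, at 161 with the others between 204 and 207. Hs3st2 was highest in NPC 9w PLX5622 replicate 1, at 0.979, which is 1 read, with the other 4 libraries at 0.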

How the results depend on the processing

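For the 7 genes, the direction of NPC against WT was the same in every alternative at every age. They were picked on that direction, so nothing is read from its constancy. The values that moved by more than 1 SD between replicates were Gpr165 at 6 weeks, -2.67 without NPC 6w replicates B and C, and Hs3st2 at 9 weeks, -4.39 with a pseudocount of 5, -6.09 by edgeR and -6.16 by DESeq2. With PLX5622, Cd34 had the other sign (0.03) without PLX5622 replicate 3, on a value that did not pass.

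Counts of all genes called moved more. At 1 week 204 genes passed, 391 by DESeq2, and 87 to 453 with 1 library left out (at 1 week 87 for WT replicate A, 93 for NPC replicate D and 128 for NPC replicate C, and 453 for NPC 3w replicate C). At 3 weeks 3777 passed, 769 in a fit of the 2 groups alone, and 2057 to 5200 with 1 library left out (2057 for NPC replicate C and 2372 for WT replicate A of that age). At 6 weeks 2143 passed, 872 when replicates B and C of NPC 6w were both left out, and 1524 to 3277 with 1 left out (3277 without NPC 3w replicate C). At 9 weeks 2665 passed, 4429 in a fit of the 2 groups alone, and 1641 to 3752 with 1 left out (1641 without NPC 9w replicate A). For PLX5622 against control 122 passed, 79 with no filter, 534 in the fit of all 41 libraries, 605 by DESeq2, and 21 to 465 with 1 left out (38, 62 and 47 without PLX5622 replicates 4, 3 and 2, 465 without replicate 5, and 35, 33, 29 and 21 without control replicates 2, 3, 4 and 5). The cause was not tested.

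Rescaling to equal totals moved the median of all genes at 3 weeks from -0.04 to -0.17 and the calls from 2006 higher and 1771 lower to 1503 and 2440; at 9 weeks they went from 1574 and 1091 to 1415 and 1487. With a replicate block 239 genes passed at 1 week, 4366 at 3, 2067 at 6 and 2019 at 9 weeks, and 416 for PLX5622 against control, where Gpr165 (limma adjusted p = 0.00779) and Serpinf1 (0.0483) then passed although the numbers did not pair those libraries. Depth limits Hs3st2 in NPC at 9 weeks, where single libraries held 1 to 3 reads.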
